A study of Caenorhabditis elegans with 18 samples.

Results

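Described here are 6 genes of the UDP-glucuronosyltransferase (UGT) family of Caenorhabditis elegans, ugt-9, ugt-61, ugt-62, ugt-11, ugt-1 and ugt-2. They were chosen by a measured value, a reduced induction by antimycin in animals mutant for the nuclear hormone receptor gene nhr-45. The table of counts held 23368 genes, of which 65 carried a ugt symbol, so the 6 genes stand beside 59 other ugt genes. All 6 passed the filter on low counts, as did 33 of the 59 others and 10981 genes in all. One of them, ugt-61, passed only through the antimycin libraries of nhr-178 mutants and wild type, where it was high. With the nhr-45 libraries alone, ugt-61 and ugt-1 did not pass.

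Whole worms were grown from synchronized first-stage larvae to early adulthood on Escherichia coli HT115 and sequenced as total RNA. The nhr-45 mutants carried the allele tm1307 and were grown with 0.3 µM antimycin A or with the solvent DMSO alone. The nhr-178 mutants carried the allele gk1005 and were grown in the same 2 ways, as was the wild-type strain N2 (WT). Each of the 6 groups had 3 libraries, 18 in all, which the series text calls biological triplicates. Nothing more is said of separate cultures, so the spread behind each p-value may in part be technical.

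UGT enzymes sit in the membrane of the endoplasmic reticulum and join a sugar from a UDP-sugar donor to small lipophilic molecules, which makes them more soluble and easier to export. They are counted with the cytochrome P450 enzymes and the glutathione S-transferases among the enzymes that modify foreign compounds, and in worms many such genes are expressed in the intestine. Antimycin A, made by Streptomyces bacteria, blocks complex III of the mitochondrial respiratory chain. NHR-45 and NHR-178 belong to the nuclear hormone receptors, a family of transcription factors that is greatly expanded in nematodes.

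Levels are given in CPM, counts scaled to library size with factors from the trimmed mean of M values. A log2 fold change is antimycin over DMSO unless said otherwise. The induction in nhr-45 and in WT chose the genes, so their values in those genotypes and every value set against WT are a description without a test. The antimycin response in nhr-178 was measured in libraries that the choice did not use, and only there were the 6 genes tested, with edgeR's quasi-likelihood test and Benjamini-Hochberg adjustment over 10981 genes. Total counts ran from 1772887 to 9488037 per library. The lowest total was that of replicate 2 of nhr-45 in antimycin, where 3 counts equal 1.61 CPM. Low CPM values of that library, the second given for its group, are thus the least firm. The deposited counts do not check the genotypes. The nhr-45 gene averaged 6.31 ± 1.38 and 4.29 ± 1.34 CPM in the nhr-45 libraries in antimycin and DMSO, against 7.19 ± 0.799 and 5.88 ± 1.20 CPM in WT (SD, n = 3 each). The nhr-178 gene had few counts, with 22 and 2 over the 3 nhr-178 libraries in antimycin and DMSO, and 15 and 6 in WT. Its highest group was thus the nhr-178 mutants in antimycin.

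Antimycin raised all 6 genes in the nhr-178 mutants. The fold changes were 177 for ugt-9, 47.3 for ugt-61, 31.7 for ugt-1, 12.1 for ugt-62, 11.3 for ugt-2 and 8.39 for ugt-11. All 6 passed the test as higher in antimycin, where 2.05% of all genes tested did so. The filter kept ugt-61 only through groups in which it was high, and without that filter it was called too. For all 6 the antimycin and DMSO libraries did not overlap, which held, in one direction or the other, for 18.2% of all genes. In the nhr-45 mutants the log2 fold changes of the same genes were -0.22 to 1.36, against 3.06 to 7.88 in WT.

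**Figure D1:**
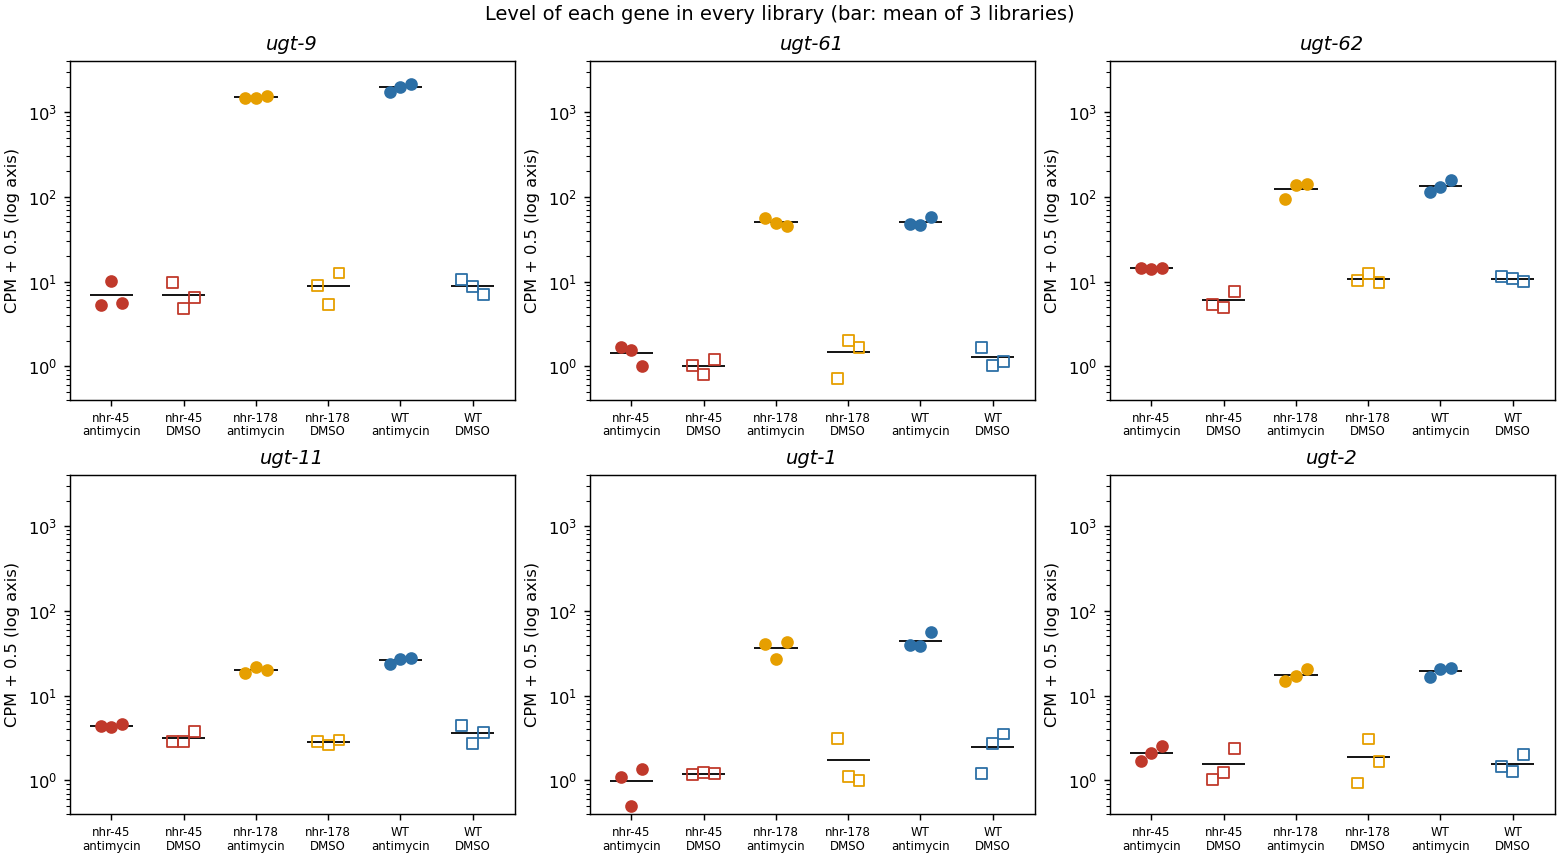
Scaled CPM plus 0.5, on a log axis, of each of the 6 genes in all 18 libraries. Filled circles are antimycin libraries, open squares DMSO libraries, and bars the means of 3 libraries. For each gene the antimycin libraries of nhr-178 and WT stand apart above the other 4 groups.

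The largest response was that of ugt-9, on chromosome V at 4896048 to 4897969 of the WBcel235 annotation, plus strand, with 6 exons and 2 annotated transcripts. In the nhr-45 mutants it had 4.73, 9.68 and 5.15 CPM in antimycin, against 9.19, 4.32 and 6.05 CPM in DMSO. In the nhr-178 mutants it had 1483, 1451 and 1550 CPM in antimycin, against 8.47, 4.85 and 12.1 CPM in DMSO. In WT it had 1725, 1974 and 2164 CPM in antimycin, against 10.1, 8.25 and 6.6 CPM in DMSO. The nhr-45 libraries overlapped between the treatments, while in the other genotypes the treatments were separated more than 100-fold in every library. In nhr-178 the log2 fold change was 7.47 ± 0.26 (SE, adjusted p = 9.9e-18), which had the lowest p of all 10981 genes and ranked 9 by size. The values were -0.22 ± 0.30 in nhr-45 and 7.88 ± 0.26 in WT. The level in nhr-45 animals in antimycin was 0.291% of that in WT animals in antimycin.

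Next to ugt-9, on the minus strand at 4892588 to 4895071 of chromosome V, lies ugt-11. The genes point away from each other, with 976 bp between their annotated ends. In nhr-45 animals ugt-11 had 3.90, 3.76 and 4.12 CPM in antimycin, against 2.40, 2.39 and 3.26 CPM in DMSO. The nhr-178 animals had 18.2, 21.1 and 19.6 CPM in antimycin, against 2.39, 2.12 and 2.49 CPM in DMSO. WT animals had 23.4, 26.9 and 27.3 CPM in antimycin, against 3.92, 2.23 and 3.14 CPM in DMSO. No genotype had overlapping treatments, though in nhr-45 the gap was small. The response in nhr-178 was 3.07 ± 0.26 on the log2 scale (SE, adjusted p = 2.5e-09), beside 0.59 ± 0.29 in nhr-45 and 3.06 ± 0.24 in WT. Antimycin animals of nhr-45 had 15.3% of the WT level, the highest share among the 6 genes.

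Further left on chromosome V, at 4742422 to 4745373 on the plus strand, is ugt-61, a gene of 8 exons. In nhr-45 animals it had 1.18, 1.08 and 0.515 CPM in antimycin, against 0.533, 0.298 and 0.699 CPM in DMSO. In nhr-178 animals it had 55.2, 49.1 and 45.3 CPM in antimycin, against 0.217, 1.52 and 1.16 CPM in DMSO. In WT animals it had 47.8, 46.3 and 56.9 CPM in antimycin, against 1.19, 0.524 and 0.649 CPM in DMSO. The nhr-178 and WT libraries in antimycin interleaved near 50 CPM, and all other libraries were below 2 CPM. The log2 fold change in nhr-178 was 5.56 ± 0.32 (SE, adjusted p = 5.9e-13), beside 0.89 ± 0.59 in nhr-45 and 5.96 ± 0.31 in WT.

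The pair ugt-1 and ugt-2 lies in tandem on the plus strand of chromosome V, at 10395663 to 10397820 and 10398801 to 10401307, 980 bp apart. The genes are near-identical, and how reads shared by both were counted is not given in the sources used here, so each level is uncertain and their sum is given too. In nhr-45 animals ugt-1 had 0.592, 0 and 0.858 CPM in antimycin, against 0.666, 0.746 and 0.699 CPM in DMSO. In nhr-178 animals it had 39.7, 26.9 and 42.8 CPM in antimycin, against 2.61, 0.606 and 0.499 CPM in DMSO. In WT animals it had 39.4, 37.6 and 55.9 CPM in antimycin, against 0.712, 2.23 and 3.03 CPM in DMSO. The log2 fold change in nhr-178 was 4.99 ± 0.42 (SE, adjusted p = 1.9e-09), beside -0.19 ± 0.77 in nhr-45 and 4.46 ± 0.36 in WT. Without replicate 1 of nhr-178 in DMSO, the library at 2.61 CPM, the nhr-178 value was 5.98, and without replicate 3 of that group it was 4.63.

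For ugt-2 the nhr-45 animals had 1.18, 1.61 and 2.06 CPM in antimycin, against 0.533, 0.746 and 1.86 CPM in DMSO. The nhr-178 animals had 14.3, 16.4 and 19.9 CPM in antimycin, against 0.434, 2.58 and 1.16 CPM in DMSO. WT animals had 16.3, 20.1 and 20.6 CPM in antimycin, against 0.949, 0.786 and 1.52 CPM in DMSO. As for ugt-1, the treatments overlapped in nhr-45 alone among the 3 genotypes. The log2 fold change in nhr-178 was 3.50 ± 0.39 (SE, adjusted p = 4.2e-07). This value was 4.30 without replicate 2 of nhr-178 in DMSO and 3.14 without replicate 1 of that group. With all libraries the log2 fold change was 0.73 ± 0.54 in nhr-45 and 4.10 ± 0.38 in WT. Summed over both genes, the levels in nhr-178 were 53.3 ± 9.69 CPM in antimycin and 2.63 ± 0.839 CPM in DMSO (SD, n = 3 each), and the response was 4.34 ± 0.30 on the log2 scale (SE, adjusted p = 5.1e-11). The summed response was 0.39 ± 0.44 in nhr-45 and 4.34 ± 0.29 in WT.

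How the counts were divided between the tandem genes is given as a description. Of the counts of both genes, ugt-1 held 28.6% in nhr-45 animals in antimycin (10 of 35 counts, exact binomial 95% interval 14.6 to 46.3%) and 43.3% in DMSO (13 of 30, 25.5 to 62.6%). In nhr-178 animals it held 67.4% in antimycin (729 of 1082, 64.5 to 70.2%) and 42.2% in DMSO (19 of 45, 27.7 to 57.8%). In WT animals it held 70.3% in antimycin (718 of 1022, 67.3 to 73.0%) and 64.6% in DMSO (51 of 79, 53.0 to 75.0%). These intervals cover counting error only. Single libraries ran from 19 to 85.7% in nhr-178 in DMSO. The shares outside the antimycin groups of nhr-178 and WT rest on few counts, and no difference between groups was tested.

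The gene ugt-62 is the only one of the 6 on another chromosome, at 4537281 to 4540623 on the minus strand of chromosome III, with 8 exons. In nhr-45 animals it had 14, 13.4 and 14.1 CPM in antimycin, against 4.93, 4.47 and 7.22 CPM in DMSO. In nhr-178 animals it had 93.2, 138 and 143 CPM in antimycin, against 9.77, 11.8 and 9.31 CPM in DMSO. In WT animals it had 114, 131 and 159 CPM in antimycin, against 10.9, 10.5 and 9.63 CPM in DMSO. The treatments did not overlap in any genotype, and the nhr-45 libraries in DMSO were below all other libraries. The log2 fold change in nhr-178 was 3.59 ± 0.20 (SE, adjusted p = 5.2e-13), beside 1.36 ± 0.23 in nhr-45, the largest value of the 6 genes in that genotype, and 3.71 ± 0.20 in WT.

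**Figure D2:**
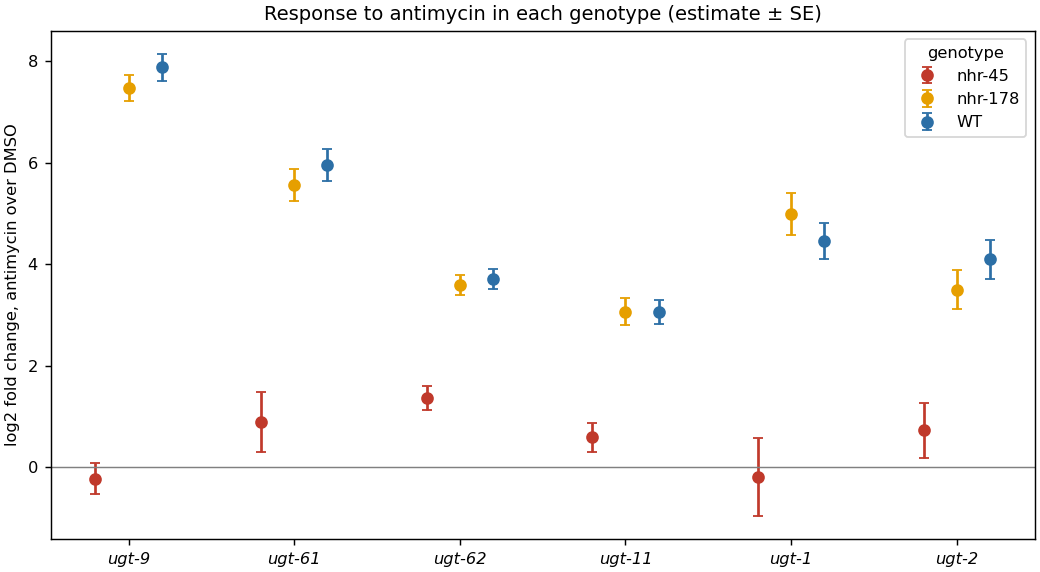
Estimated log2 fold change of antimycin over DMSO for each of the 6 genes in nhr-45, nhr-178 and WT, with bars of 1 SE. The nhr-45 points lie between -0.22 and 1.36, and the nhr-178 and WT points between 3.06 and 7.88.

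Reduced induction in nhr-45 took different sizes. The interaction, the log2 response in nhr-45 minus that in WT, was -8.10 ± 0.39 for ugt-9, -5.07 ± 0.81 for ugt-61, -4.65 ± 0.90 for ugt-1, -3.37 ± 0.70 for ugt-2, -2.47 ± 0.38 for ugt-11 and -2.34 ± 0.30 for ugt-62 (SE). These values chose the genes and are given without a test. Just outside the choice were the ugt genes ugt-28, ugt-12 and ugt-53, at -2.20, -2.18 and -2.18. In nhr-45 animals the antimycin libraries of 2 of the 6 genes, ugt-62 and ugt-11, lay above all DMSO libraries, as did those of 21.1% of all genes, against 6 of 6 in WT, where 10.7% of all genes did so. Nothing is read from these counts.

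Set against WT in antimycin, all 6 genes were lower in every nhr-45 library, as were 12.8% of all genes. Their levels were 0.291% (ugt-9), 1.42% (ugt-1), 1.87% (ugt-61), 8.34% (ugt-2), 10.3% (ugt-62) and 15.3% (ugt-11) of WT. In DMSO 1 of the 6, ugt-62, was lower in every nhr-45 library, where 7.42% of all genes were. Its log2 difference from WT in DMSO was -0.94 ± 0.23 (SE), or 52.3% of the WT level. For ugt-1 the difference was -1.49 ± 0.56, with overlapping libraries. The other 4 genes differed by -0.67 to -0.22.

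Other transcripts moved in the nhr-45 libraries in antimycin. Sperm genes, the major sperm proteins and the phosphatases gsp-3 and gsp-4, summed to 691 to 853 CPM there and 94.4 to 144 CPM in nhr-45 in DMSO, against 41.7 to 65.4 CPM and 15.5 to 33.1 CPM in WT in antimycin and DMSO. Epidermal moulting genes summed to 672 to 1388 CPM in nhr-45 in antimycin and 33.6 to 78.2 CPM in DMSO, against 54.2 to 98.2 CPM and 38.8 to 50.8 CPM in the same WT groups. Oocyte and yolk genes summed to 4006 to 4797 CPM and 8361 to 11901 CPM in the same nhr-45 groups, against 6882 to 7457 CPM and 9165 to 11729 CPM in WT in antimycin and DMSO. In WT, too, the antimycin libraries were above the DMSO libraries for the sperm and moulting sums and below them for the oocyte and yolk sum. In the nhr-45 response 24 of 25 sperm genes and 10 of 10 moulting genes tested were higher in antimycin, and 10 of 10 oocyte and yolk genes were lower, where 15.2% and 8.33% of all genes were higher and lower. The filter kept 25 of 32 sperm genes and 10 of 11 moulting genes. Some, such as msp-38, gsp-3 and mlt-11, passed only through the nhr-45 libraries in antimycin, where they were high. The sperm and moulting counts are thus in part set by the filter, and no support is drawn from them. The median log2 fold change of the sperm genes tested was 2.71 in nhr-45, 2.29 in nhr-178, where counts were few, and 1.12 in WT. For moulting genes it was 3.64, 0.46 and 0.90, and for oocyte and yolk genes -1.25, -0.21 and -0.46. By edgeR the response in nhr-45 was higher than in WT for 3 of 25 sperm and 5 of 10 moulting genes. It was lower for 3 of 10 oocyte and yolk genes, where 1.29% of all genes were. The part of these differences in the low levels of the 6 genes was not tested. In whole animals, fewer cells of a type and less RNA per cell cannot be told apart.

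The 8 intestinal markers, among them the GATA factor elt-2, the esterase ges-1 and the peptide transporter pept-1, were all detected in every group. They summed to 2718 to 3124 CPM in nhr-45 in antimycin and 1885 to 2059 CPM in nhr-45 in DMSO. In nhr-178 they summed to 2754 to 3107 CPM in antimycin and 1847 to 2017 CPM in DMSO, and in WT to 1998 to 2429 CPM and 1691 to 1862 CPM. Most of the sum came from asp-1, act-5 and ifb-2, and single markers differed. In antimycin ifb-2 averaged 466 ± 57.6 CPM in nhr-45 and 202 ± 7.03 CPM in WT, act-5 871 ± 58.8 and 860 ± 132 CPM, and elt-7 4.45 ± 0.893 and 6.10 ± 2.09 CPM (SD, n = 3 each). Of the 8 markers, 4 were higher in the nhr-45 response, where 15.2% of all genes were, 2 in the nhr-178 response, where 2.05% were, and 1 in WT, where 2.07% were. In nhr-178, where the 6 genes were tested, sperm genes summed to 10.01 to 22.8 CPM in antimycin and 0.651 to 7.43 CPM in DMSO, moulting genes to 44.5 to 55.6 CPM and 27.4 to 34.9 CPM, and oocyte and yolk genes to 7825 to 8822 CPM and 8451 to 9709 CPM. There 2 of 25 sperm genes were higher by edgeR, where 2.05% of all genes were, against 11 higher at an unadjusted p below 0.05 and 3 by DESeq2. None of the 10 moulting or the 10 oocyte and yolk genes was called by edgeR or DESeq2, with 2 moulting genes higher and 1 lower, and 2 oocyte and yolk genes lower, at an unadjusted p below 0.05. The part of these levels in the response of the 6 genes was not tested.

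In the WT response 1 of 10 moulting genes was higher and 2 of 10 oocyte and yolk genes were lower, where 2.07% and 0.938% of all genes were higher and lower. No sperm gene was called there by edgeR, against 6 higher at an unadjusted p below 0.05 and 2 by DESeq2.

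The response in nhr-178 was close in size to that in WT. The log2 response in nhr-178 minus that in WT was -0.41 ± 0.32 for ugt-9, -0.40 ± 0.52 for ugt-61, -0.11 ± 0.27 for ugt-62, 0.01 ± 0.30 for ugt-11, 0.53 ± 0.60 for ugt-1 and -0.60 ± 0.57 for ugt-2 (SE), given without a test because the WT libraries were part of the choice. The SE of these values is 0.27 to 0.60, so a difference of that size was not resolved. In antimycin, ugt-9 and ugt-11 were lower in every nhr-178 library than in any WT library, which makes 2 of 6 genes where 10.6% of all genes did so. Their log2 differences from WT were -0.39 ± 0.18 and -0.40 ± 0.21, or 76.5% and 75.8% of the WT level. The other 4 genes differed by -0.29 to -0.02 in antimycin, with overlapping libraries. In DMSO none of the 6 genes was lower in all nhr-178 libraries than in WT, where 9.53% of all genes were.

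Ordered by level, every gene had the antimycin groups of nhr-178 and WT on top, in that order from below, with a gap to the next group. For ugt-61, ugt-62, ugt-1 and ugt-2 the libraries of these top groups overlapped. Below the gap, every pair of the remaining 4 groups overlapped for ugt-9, ugt-61, ugt-1 and ugt-2, so that their order is not resolved. For ugt-11 and ugt-62 the low groups were resolved in part. For ugt-11 the nhr-45 libraries in antimycin lay above all nhr-45 and nhr-178 libraries in DMSO and overlapped the WT libraries in DMSO. For ugt-62 the nhr-45 animals had 5.54 ± 1.47 CPM in DMSO, below nhr-178 and WT in DMSO at 10.3 ± 1.34 and 10.3 ± 0.653 CPM, which overlapped, and 13.8 ± 0.333 CPM in antimycin, above both (SD, n = 3 each).

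Per kilobase of annotated exon, ugt-9 stood far above the others in the induced groups. In nhr-178 in antimycin the levels were 895 CPM per kb for ugt-9, 73.7 for ugt-62, 28.3 for ugt-61, 21.1 for ugt-1, 11.1 for ugt-11 and 9.97 for ugt-2. In WT in antimycin they were 1169 CPM per kb for ugt-9, 79.7 for ugt-62, 28.6 for ugt-61, 25.6 for ugt-1, 14.7 for ugt-11 and 11.2 for ugt-2, the same order. Among all genes, ranked by CPM per kb, ugt-9 was placed 216 to 235 in nhr-178 in antimycin and 139 to 200 in WT in antimycin. In nhr-45 in antimycin it was placed 7004 to 8788, and in the DMSO groups of the 3 genotypes 6025 to 8225. Within the antimycin groups of nhr-178 and WT, the spread between replicates was smallest for ugt-9 in nhr-178, with a coefficient of variation of 3.36%, and largest for ugt-1, at 23.1% in nhr-178 and 22.8% in WT.

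The 6 genes made up most of the family's RNA wherever they were induced. In nhr-45 they held 8.34 ± 0.71% of all counts on ugt genes in antimycin and 6.82 ± 0.89% in DMSO. In nhr-178 they held 84.9 ± 0.73% in antimycin and 9.58 ± 0.06% in DMSO, and in WT 87.1 ± 0.48% in antimycin and 9.61 ± 0.81% in DMSO (SD, n = 3 each). Per kilobase the shares in antimycin were 8.76% in nhr-45, 85.6% in nhr-178 and 87.7% in WT. By counts, ugt-9 alone held 1.98% in nhr-45, 72.9% in nhr-178 and 76.4% in WT in antimycin. The 59 other ugt genes summed to 300 ± 15.5 CPM in nhr-45 in antimycin and 231 ± 25.1 CPM in DMSO. In nhr-178 they summed to 310 ± 24.2 CPM in antimycin and 233 ± 15.4 CPM in DMSO, and in WT to 330 ± 24.4 CPM and 241 ± 13.3 CPM.

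**Figure D3:**
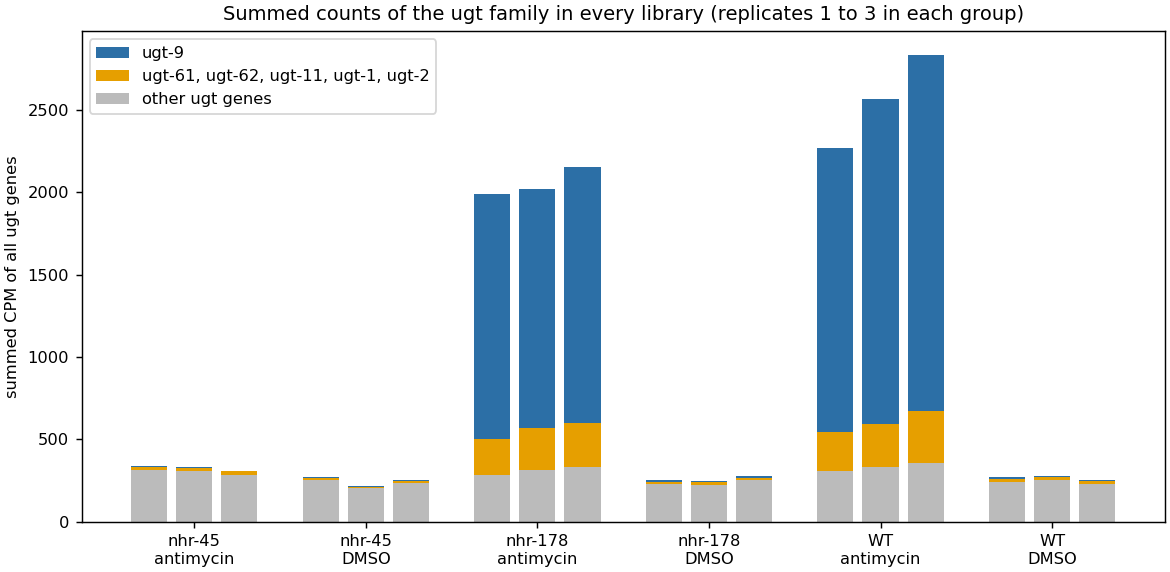
Summed scaled CPM of all 65 ugt genes in each of the 18 libraries, stacked as the 59 others (grey), 5 of the 6 genes (orange) and ugt-9 (blue), with replicates 1 to 3 side by side in each group. The blue part makes most of the bar in the antimycin libraries of nhr-178 and WT. The grey part varies far less, and in each genotype it is higher in every antimycin library than in any DMSO library.

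Outside the 6 genes, 3 to 5 of the 33 ugt genes tested were called higher in antimycin in each genotype. The choice used nhr-45 and WT values to take the 6 genes out, so the counts in those genotypes are not free of it. In nhr-45, ugt-30, ugt-49 and ugt-50 were higher in antimycin, which is 3 of 33 where 15.2% of all genes were. In nhr-178, ugt-12, ugt-19, ugt-29, ugt-31 and ugt-50 were higher, which is 5 of 33 where 2.05% of all genes were. In WT, ugt-12, ugt-28, ugt-50 and ugt-53 were higher, which is 4 of 33 where 2.07% of all genes were. None was called lower in any genotype by edgeR or by DESeq2, where edgeR called 8.33%, 0.656% and 0.938% of all genes lower in nhr-45, nhr-178 and WT, while 1, 2 and 1 were lower at an unadjusted p below 0.05. The median log2 fold change of the 33 genes was 0.26 in nhr-45, 0.50 in nhr-178 and 0.35 in WT, beside 0.00, 0.00 and 0.01 for all genes.

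A ugt gene called in all 3 genotypes was ugt-50. It had 43.8 ± 2.76 CPM in antimycin and 22.1 ± 1.61 CPM in DMSO in nhr-45, 36.1 ± 0.726 and 21.5 ± 1.0 CPM in nhr-178, and 42.4 ± 7.63 and 20.8 ± 1.32 CPM in WT (SD, n = 3 each). Its log2 fold changes were 0.97 ± 0.17 in nhr-45, 0.74 ± 0.17 in nhr-178 and 1.04 ± 0.16 in WT (SE), with adjusted p of 0.00010, 0.0082 and 0.00018 from edgeR. The interaction of nhr-45 with antimycin for ugt-50 was -0.06 ± 0.23. In nhr-45 the levels of ugt-28 and ugt-53 in antimycin were 1.23 ± 0.631 and 1.04 ± 0.512 CPM, against 2.32 ± 1.25 and 1.57 ± 0.616 CPM in DMSO. Their WT calls came from levels of 7.55 ± 2.58 and 14.5 ± 3.50 CPM in antimycin, against 2.63 ± 1.21 and 4.52 ± 1.12 CPM in DMSO.

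**Figure D4:**
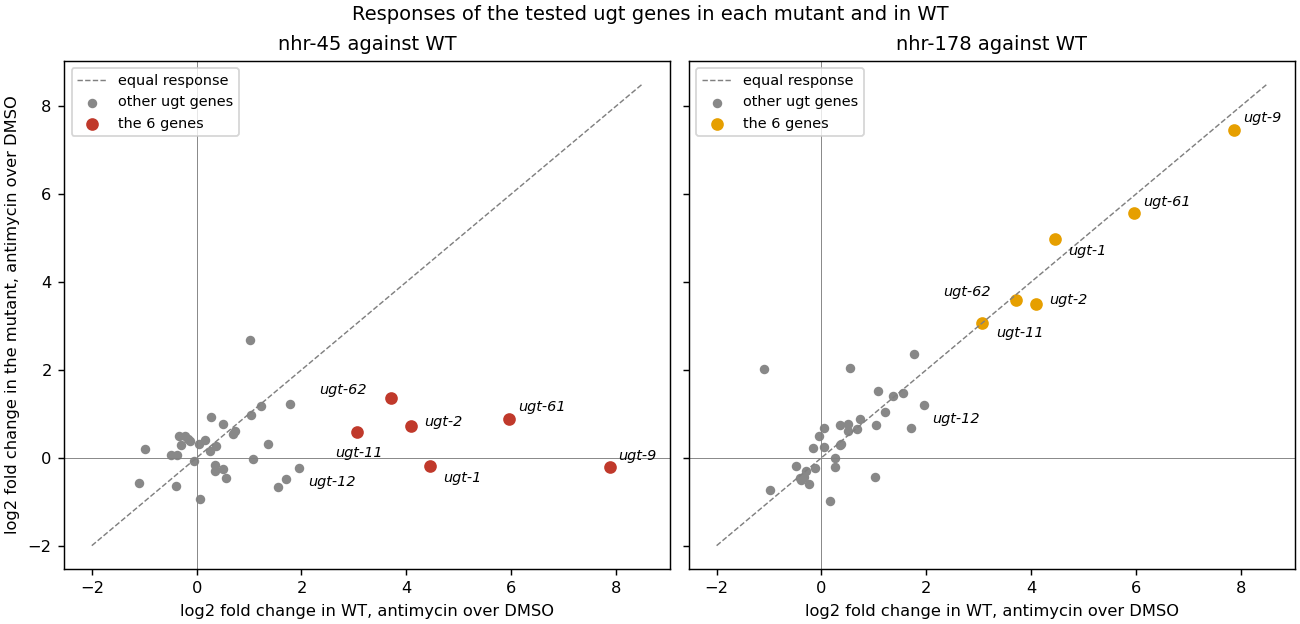
Log2 fold change of antimycin over DMSO in nhr-45 (left) and in nhr-178 (right) against that in WT for the 39 ugt genes that passed the filter. Coloured points are the 6 genes, grey points the 33 others, and the dashed line marks equal responses. The 6 genes lie far below the line on the left, where their values chose them, and near it on the right.

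The divergent pair ugt-11 and ugt-9 belongs to an array of 8 ugt genes within 24.2 kb of chromosome V. In order they are ugt-12, ugt-11, ugt-9, ugt-10, ugt-67, ugt-8, ugt-14 and ugt-13. The end of ugt-10 lies 57 bp from that of ugt-9, on the other strand, and ugt-10 had 5 counts over all 18 libraries. The genes ugt-67 and ugt-14 had 8 and 6 counts. ugt-8 averaged 0.785 to 1.43 CPM in the groups. ugt-13 had 16.5 ± 3.31 CPM in antimycin and 11.5 ± 2.28 CPM in DMSO in nhr-45, 16 ± 1.5 and 10.1 ± 1.10 CPM in nhr-178, and 17.1 ± 3.08 and 10.8 ± 4.59 CPM in WT, and was not called in any genotype. The high counts of ugt-9 in nhr-178 and WT in antimycin thus had no counterpart in the gene that lies 57 bp away.

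At the other end of the array, ugt-12 had 11.8 ± 3.02 CPM in antimycin and 13.2 ± 2.88 CPM in DMSO in nhr-45 animals. It had 37.7 ± 3.35 and 16.4 ± 2.35 CPM in nhr-178, and 46.1 ± 6.90 and 12 ± 1.45 CPM in WT (SD, n = 3 each). Its log2 fold change was -0.23 ± 0.23 in nhr-45, 1.21 ± 0.20 in nhr-178 (SE, adjusted p = 0.00029, edgeR) and 1.95 ± 0.20 in WT (SE, adjusted p = 2.0e-07, edgeR). Among the 33 ugt genes outside the 6 it was the only 1 whose response was called lower in nhr-45 than in WT, where 1.29% of all genes were, and DESeq2 called 3. The choice had taken the 6 ugt genes with the most negative values of this difference out of the 33. The count is therefore cut by the choice and cannot be weighed against that share. In nhr-178 the only such call was ugt-31, with a higher response than in WT, where 0.146% of all genes had one. Between ugt-12 and ugt-11 lies T19H12.2, transcribed in the opposite direction to both, with 1893 ± 296 CPM in antimycin and 2136 ± 333 CPM in DMSO in nhr-45. It had 2659 ± 400 and 2601 ± 508 CPM in nhr-178 and 2136 ± 315 and 2429 ± 144 CPM in WT, and no call. Of the protein-coding neighbours within 10 kb of any of the 6 genes, 14 passed the filter, 4 of which were ugt-9, ugt-11, ugt-1 and ugt-2 themselves, and among the other 10 only ugt-12 was called in nhr-178 or WT. Of all genes, 2.05% were called higher and 0.656% lower in nhr-178, and 2.07% and 0.938% in WT. With shares this small, the lack of calls among so few neighbours is not read as a result.

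**Figure D5:**
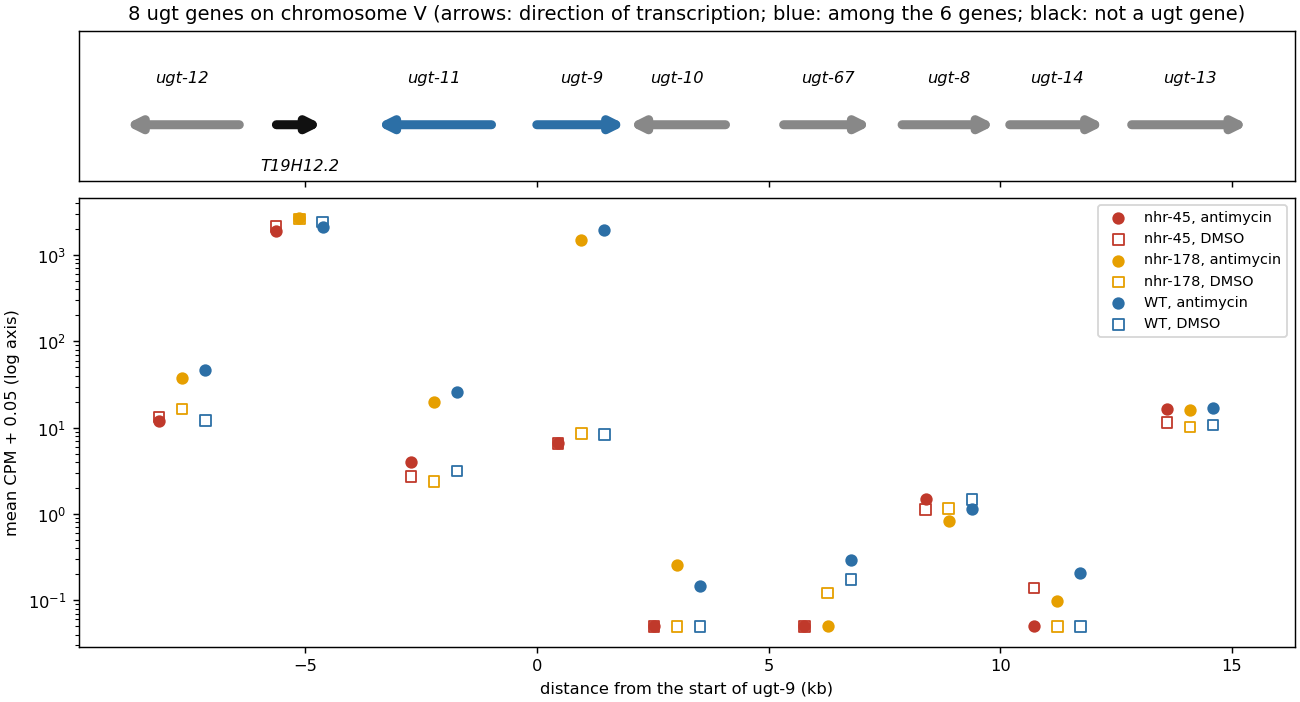
Upper panel, the 8 ugt genes of the array and T19H12.2 as arrows in the direction of transcription, placed by distance from the start of ugt-9 in kb, with ugt-9 and ugt-11 in blue. Lower panel, mean scaled CPM plus 0.05 on a log axis at each gene's centre, shifted sideways by genotype, filled circles for antimycin and open squares for DMSO. Antimycin circles stand above DMSO squares in nhr-178 and WT at ugt-12 and ugt-9, and in all 3 genotypes at ugt-11 and ugt-13, while ugt-10, ugt-67 and ugt-14 stay near the lower end.

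Genes with the pattern most like that of each of the 6 were ranked by the root mean square difference of centred log2(CPM + 0.5) values over the 18 libraries. This is a description of similarity, and the cyp-33C genes have close relatives among which reads could be split. The added 0.5 CPM shrinks differences among low levels, so a gene near 0 CPM can rank as near despite an unlike fold change. Nearest to ugt-9 was cyp-33C5, a cytochrome P450 gene, at a difference of 0.65, followed by F48G7.12 at 1.12 and ugt-61 at 1.26. cyp-33C5 averaged 0.617 ± 0.871 and 0.564 ± 0.545 CPM in nhr-45 in antimycin and DMSO, 175 ± 36.8 and 0.585 ± 0.521 CPM in nhr-178, and 173 ± 30.1 and 0.720 ± 0.347 CPM in WT. Nearest to ugt-61 were F48G7.12 at 0.46, the glutathione S-transferase gene gst-33 at 0.56 and the invertebrate-type lysozyme gene ilys-2 at 0.70. F48G7.12 had no count in the DMSO libraries of any genotype, and averaged 0.0394 CPM in nhr-45, 33.1 CPM in nhr-178 and 21.0 CPM in WT in antimycin.

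Nearest to ugt-62 were cdr-4 at 0.35, ugt-2 at 0.43 and cdr-2 at 0.47, where the cdr genes are named for their response to cadmium. cdr-4 averaged 21.0 ± 1.12 and 6.42 ± 0.74 CPM in nhr-45 in antimycin and DMSO, 215 ± 30.1 and 12.4 ± 1.35 CPM in nhr-178, and 137 ± 16.8 and 11.9 ± 1.59 CPM in WT. Nearest to ugt-11 were mfsd-13.2 at 0.39, spig-6 at 0.43 and cdr-2 at 0.46. Levels of spig-6 were low, with 0 and 0.177 CPM in nhr-45 in antimycin and DMSO, 1.93 and 0 CPM in nhr-178, and 5.42 and 0.0395 CPM in WT. Its log2 fold change in WT was 6.49, against 3.06 for ugt-11. Nearest to ugt-1 were the cytochrome P450 gene cyp-25A2 at 0.70, gst-33 at 0.74 and cyp-33C4 at 0.74. Nearest to ugt-2 were ugt-62 at 0.43, ugt-11 at 0.53 and the cytochrome P450 gene cyp-13A7 at 0.58. Levels of cyp-13A7 were low too, with 0 CPM in both nhr-45 groups, 4.86 and 0 CPM in nhr-178 in antimycin and DMSO, and 4.25 and 0.214 CPM in WT. Among the 6 genes themselves, the most alike pair was ugt-62 and ugt-2, on different chromosomes, at 0.43. The least alike was the adjacent pair ugt-9 and ugt-11, at 2.43, and the tandem pair ugt-1 and ugt-2 differed by 1.10. This measure includes the size of a response. Both ugt-9 and ugt-11 rose in nhr-178 and WT, with log2 fold changes of 7.88 and 3.06 in WT.

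Genes listed as possible regulators of such enzymes were also followed. Of 13 listed genes, among them the nuclear receptors nhr-8, nhr-49 and daf-12, the stress factor skn-1 and the mediator subunit mdt-15, 11 passed the filter. In the nhr-45 response nhr-8 and elt-2 were higher, which is 2 of 11, near the 15.2% of all genes that were higher, with log2 fold changes of 0.95 ± 0.30 and 0.79 ± 0.24 (SE) and adjusted p of 0.023 and 0.018 from edgeR. In nhr-178 nhr-8 was higher, with a log2 fold change of 1.22 ± 0.31 and an adjusted p of 0.023, which is 1 of 11 where 2.05% of all genes were higher. In WT none was called by edgeR or DESeq2, and 1 was higher at an unadjusted p below 0.05. There nhr-8 had 9.61 ± 1.65 CPM in antimycin and 5.18 ± 0.669 CPM in DMSO.

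Of the genes listed for making, converting or moving UDP-sugars, 5 of 7 were matched by symbol and 4 passed the filter. These were sqv-4, the UDP-glucose dehydrogenase, sqv-1, the UDP-glucuronate decarboxylase, the nucleotide-sugar transporter sqv-7 and the epimerase gene gale-1. In nhr-45 sqv-1 was lower in antimycin, at 103 ± 21.5 CPM against 140 ± 8.18 CPM in DMSO, a log2 response of -0.46 ± 0.14 (SE, edgeR adjusted p = 0.022), which is 1 of 4 where 8.33% of all genes were lower. In nhr-178 and in WT none of the 4 was called by edgeR or DESeq2, and at an unadjusted p below 0.05 none was changed in nhr-178 and 1 was lower in WT.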

How the data were processed

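The authors deposited 1 table of read counts per gene, whole numbers for 18 libraries of whole-animal RNA. The submitters' processing notes name RSEM, Bowtie2, R 3.6.3 and DESeq2 without saying what each did. Genome build, annotation and strand use are not stated, nor is the treatment of reads that map to several genes. Gene symbols, positions and exon lengths came from the Ensembl WBcel235 annotation, joined by WormBase identifier.

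Columns were matched to samples by title. In R 4.3.3, edgeR 4.0.16 was run on all 18 libraries with 1 mean per group, TMM scaling, filterByExpr by group and the quasi-likelihood test, with Benjamini-Hochberg adjustment over the 10981 genes kept and a threshold of 0.05. The fit was tested on simulated data. CPM values use the effective library sizes. With 12 residual degrees of freedom the biological coefficient of variation was 17.1%. No libraries of a group agreed within sampling noise.

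The members, the gene lists, the rule for named genes and the tests were chosen with earlier results of these data known. Named were the 6 genes, other ugt genes called in WT or nhr-178, the 3 genes nearest in pattern to each, and regulator and sugar donor lists; the genes of the array around ugt-9 and the ugt genes called in nhr-45 were named after their values were seen. Alternatives were size factors, DESeq2 1.42.0, no filter and a stricter filter, only the libraries compared, a replicate block, ugt-1 and ugt-2 summed, each library left out, and the 2 shallowest libraries left out. Promoter motifs were not analysed here.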

Additional observations from a re-analysis of the deposited data

Results flagged for a closer look

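The difference between genotypes in the antimycin response passed the test for 2 ugt genes outside the 6, among 33 tested. For ugt-12 the log2 response in nhr-45 minus that in WT was -2.18 ± 0.30 (SE, edgeR adjusted p = 3.5e-05), and it was 1 of 33 lower, where 1.29% of all genes were. The 6 ugt genes with the most negative values of this difference had been taken out by the choice. The count of 1 of 33 thus cannot be weighed against that share. All 3 nhr-45 libraries in antimycin were below all WT libraries in antimycin, and the call held in all 26 alternatives, with values of -2.37 to -2.0.

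For ugt-31 the log2 response in nhr-178 minus that in WT was 3.12 ± 0.69 (SE, edgeR adjusted p = 0.045), and it was 1 of 33 higher, where 0.146% of all genes were. The gene averaged 7.52 ± 2.18 CPM in antimycin and 1.83 ± 0.71 CPM in DMSO in nhr-178, and 0.903 ± 0.244 CPM and 2.07 ± 0.792 CPM in WT (SD, n = 3 each). The call was lost in 15 of 26 alternatives, with adjusted p up to 0.19 when 1 library was left out, while the value stayed between 2.82 and 3.48.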

How the results depend on the processing

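Of 1132 recomputed values, 1095 were labelled the same. For tested values this means the same direction and side of the threshold, and for described values a move smaller than the spread. Counts had to stay within a set ratio, which let the 297 genes called in nhr-178 become 408 without the filter. Another 15 values lost a call, all of them ugt-31, and 22 moved. Of the tested values 0 changed sign. Described values were not labelled by sign, and some changed it, such as ugt-9 in nhr-45, from -0.22 to 0.18 with 1 library left out. The 6 genes were called higher in nhr-178 in every alternative, 5 of 5 when ugt-1 and ugt-2 were summed, with adjusted p of at most 1.6e-05. Leaving out 1 library gave 196 to 336 genes called in nhr-178 (297 with all libraries), 196 without replicate 3 of nhr-178 in antimycin. It gave 3 to 6 other ugt genes higher in nhr-178 (5 with all), 3 to 4 higher and 0 to 1 lower in nhr-45 (3 and 0 with all), and 3 to 5 higher in WT (4 with all). Without the filter, 5 other ugt genes were higher in nhr-45. The cause was not tested. Deviations of same-numbered libraries of a genotype correlated at -0.02 to 0.09 (median 0.03), and those of differently numbered ones at -0.06 to 0.03 (median -0.01). Correlations this weak cannot decide whether equal numbers mark a shared culture or batch. The replicate block gave 296 genes called in nhr-178, the 6 genes among them, and an adjusted p of 0.053 for ugt-31 from edgeR.

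The low groups rest on few counts per library. Leaving out 1 library moved the nhr-45 response of ugt-9 to between -0.48 and 0.18, of ugt-1 to between -0.55 and 0.02, of ugt-2 to between 0.39 and 1.27 and of ugt-61 to between 0.41 and 1.21 on the log2 scale, and the difference between nhr-178 and WT in the response of ugt-1 to between 0.06 and 1.53 and of ugt-2 to between -0.95 and 0.21. The cause of these movements was not tested.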
